A study of Mus musculus with 12 samples.

Results

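The genes described here are the interleukin-10 (IL-10) and TGF-beta axis of a macrophage line: the cytokine genes Il10 and Tgfb1 and the receptor genes Il10ra, Il10rb, Tgfbr1 and Tgfbr2. They were taken by symbol from a table of read counts, and all 6 were found among its 55137 entries and among the 14505 genes with enough reads to test. RNA was sequenced from RAW 264.7 cells, a virus-transformed mouse macrophage line, in 4 groups of 3 libraries. The PSTO+LPS group received PSTO at 20 uM for 30 min and then LPS at 500 ng/mL. The LPS group received vehicle and then the same LPS. The PSTO group received PSTO without LPS, and the control group received vehicle without LPS. Per the labels' protocols, cells were harvested after 6 h. What PSTO stands for is not spelled out, and garlic extract is named in the title of the series. The libraries of a group are called triplicates, and since separate cultures are not stated, the p-values measure the spread between these libraries, which may be technical.

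IL-10 is a cytokine that macrophages release after they have sensed microbial products such as LPS, and it limits their own production of inflammatory cytokines. It binds a receptor made of the IL-10 receptor alpha chain (Il10ra), which gives specificity, and the beta chain (Il10rb), which is shared with other cytokines of the family, and signals through JAK1 and TYK2 to STAT3. TGF-beta1, the product of Tgfb1, is secreted in a latent form, and once released it binds the type II receptor (Tgfbr2), which recruits and phosphorylates the type I receptor (Tgfbr1) so that SMAD2 and SMAD3 are activated. In macrophages both pathways are known for restraining activation.

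Library totals ran from 15817880 reads in PSTO+LPS 2 to 28625784 reads in LPS 1. The lowest Spearman correlation between libraries of a group was 0.988, in PSTO+LPS, against 0.991 to 0.992 in the other groups. The library PSTO+LPS 1 stood apart on the fourth principal component, which held 2.67% of the variance, at -38.9 against 21.6 and 30.7 for the other PSTO+LPS libraries, and results that it moves are also given without it. Leaving it out ended or added no call among the 30 results on the 6 genes. It also ended none among 130 results on other genes of both pathways. These 130 were picked as large calls with all libraries in, so none could be added. Counts of calls over whole pathway lists did move in places without this library. All 10 macrophage markers were detected in every group, though Mertk averaged 0.602 CPM in PSTO+LPS and at most 1.85 CPM, in control. Their summed level was 13994 to 14030 CPM in PSTO+LPS, 9836 to 9974 CPM in LPS, 12602 to 13426 CPM in PSTO and 11061 to 11789 CPM in control, where CPM are TMM-scaled reads per 1000000 reads. Summed T cell, B cell, fibroblast and epithelial markers stayed at or below 0.922, 0.755, 0.536 and 0.234 CPM in every library, and Cd3g had no read.

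Promoter windows of 250 bases before to 50 bases after the start site were held for 3 of the 6 genes, from RefSeq on the build GRCm38.p6, which is not the mm39 build of the counts. Of these genes Tgfbr1 and Tgfbr2 fell with LPS and Tgfb1 rose. A link between the promoter sequences and these changes was not tested. Capitals mark letters found on either strand among 10 motifs searched: GGANTTTCC and GGGANTNCC (NF-kB), TGANTCA (AP-1), TGACGTCA and its part TGACG (CRE), TTCNNNGAA (STAT), CAGAC (SMAD), GAAANNGAA (ISRE core), TTGCNNAA (C/EBP) and TGACNNNGC (ARE core, which can hold TGACG). The Tgfbr1 window lies at chr4:47352972-47353271 on the plus strand, the Tgfb1 window at chr7:25686752-25687051 on the plus strand, and the Tgfbr2 window at chr9:116175314-116175613 on the minus strand.
Tgfbr1: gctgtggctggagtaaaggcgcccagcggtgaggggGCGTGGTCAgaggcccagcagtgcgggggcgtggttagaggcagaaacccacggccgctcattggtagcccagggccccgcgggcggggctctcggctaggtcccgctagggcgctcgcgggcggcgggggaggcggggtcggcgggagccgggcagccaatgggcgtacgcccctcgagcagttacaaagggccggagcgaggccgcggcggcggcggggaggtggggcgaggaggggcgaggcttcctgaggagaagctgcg
Tgfbr2: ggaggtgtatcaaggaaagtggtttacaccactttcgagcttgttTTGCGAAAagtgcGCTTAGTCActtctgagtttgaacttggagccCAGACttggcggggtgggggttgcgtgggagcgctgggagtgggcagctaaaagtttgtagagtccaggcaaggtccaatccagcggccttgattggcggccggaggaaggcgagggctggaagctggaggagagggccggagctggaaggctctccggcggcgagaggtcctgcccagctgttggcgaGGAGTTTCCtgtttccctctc
Tgfb1: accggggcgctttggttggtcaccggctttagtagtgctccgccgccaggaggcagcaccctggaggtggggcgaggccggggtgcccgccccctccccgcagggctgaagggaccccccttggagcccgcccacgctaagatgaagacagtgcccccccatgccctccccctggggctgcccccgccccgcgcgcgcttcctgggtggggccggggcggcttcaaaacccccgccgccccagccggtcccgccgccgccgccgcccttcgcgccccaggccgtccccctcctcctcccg

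The Tgfbr1 window held the ARE core letters, first base at -214 from the start site. The Tgfbr2 window held C/EBP letters at -205, ARE core letters at -192, SMAD letters at -160 and NF-kB letters at 30. No searched motif was found in the Tgfb1 window. The ARE core is found in 12.4% of the 32851 promoter windows of that table, C/EBP letters in 10.8%, the SMAD letters in 49.6% and the first NF-kB form in 1.25%. A second Tgfbr1 window, at chr4:47385966-47386265, held the SMAD letters at -203. The G and C content was 74.7% in the first Tgfbr1 window, 59% in Tgfbr2 and 77% in Tgfb1.

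The first comparison asks what LPS did without PSTO, and all 6 genes changed. Il10, Il10ra and Tgfb1 were higher in LPS than in control, and Tgfbr1, Tgfbr2 and, by a small amount, Il10rb were lower. This count of 6 of 6 stands against 62.9% of all genes tested, which were called in the same comparison at an edgeR adjusted p under 0.05. In the PSTO-pretreated cells the same 3 genes were higher and the same 3 lower in PSTO+LPS than in PSTO, against 59.7% of all genes called. PSTO alone changed 5 of the 6 against control, 3 higher (Il10, Il10ra, Il10rb) and 2 lower (Tgfb1, Tgfbr1), against 30.6% of all genes, and the 5 became 3 without PSTO 3 or without control 2. PSTO+LPS differed from LPS in 4 of the 6, with Il10rb and Tgfbr1 higher and Il10ra and Tgfb1 lower, against 38.3% of all genes. The LPS and PSTO+LPS groups each enter 2 of these comparisons, as do the PSTO and control groups, so the comparisons are not independent of each other.

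**Figure D1:**
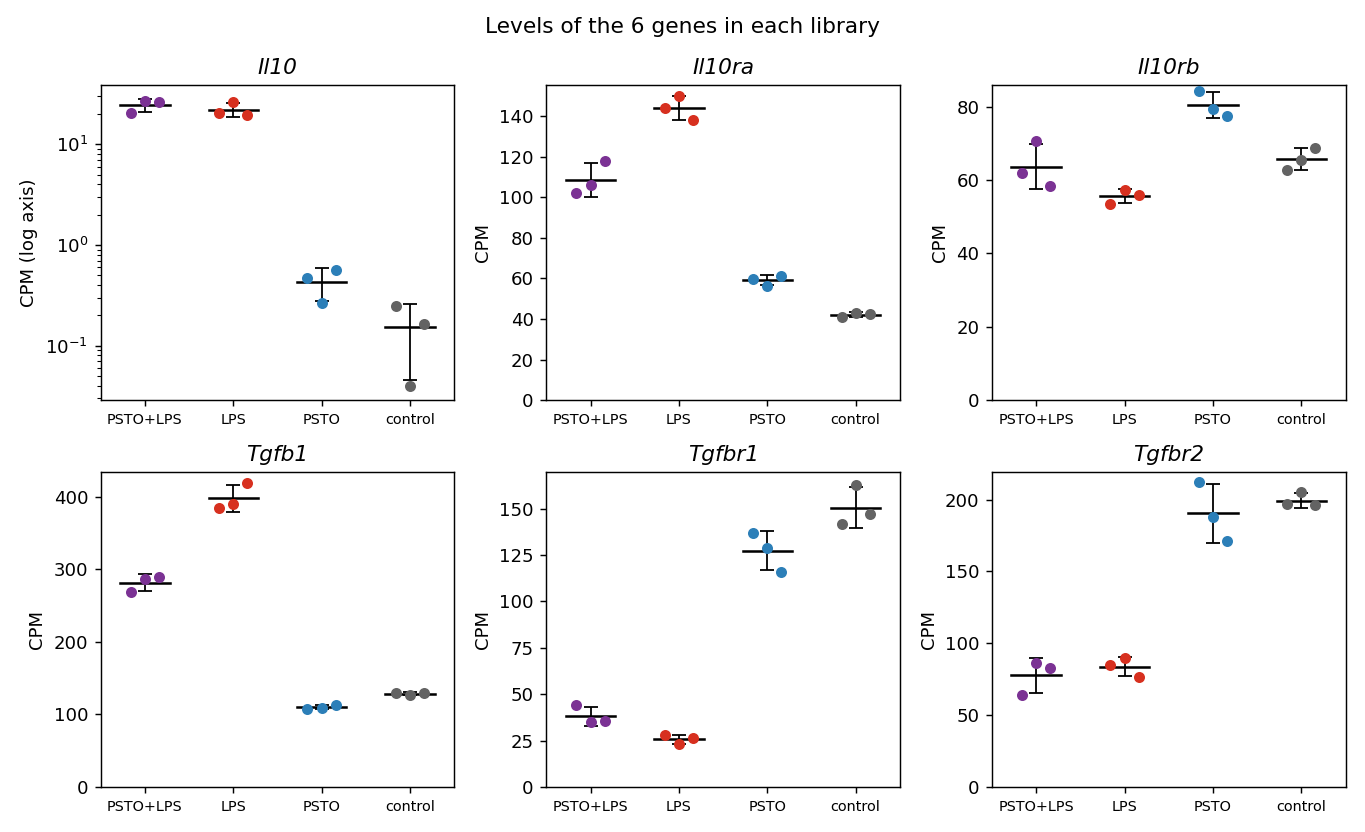
Level of each gene in each library (CPM, linear axes from 0 except Il10, which has a log axis), with group means and SD bars over 3 libraries. Il10 is between 19.7 and 26.9 CPM in the libraries with LPS and at 0.567 CPM or below in those without it, and Tgfbr1 is at 44 CPM or below with LPS and at 116 CPM or above without it.

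Il10, the cytokine gene, was near the limit of detection in cells that had not seen LPS. It stood at 20.7, 26.9 and 26.4 CPM in the PSTO+LPS libraries, at 20.7, 26.3 and 19.7 CPM in the LPS libraries, at 0.468, 0.263 and 0.567 CPM in the PSTO libraries and at 0.25, 0.0399 and 0.165 CPM in the control libraries. All 6 libraries with LPS lay above all 6 without it, and the PSTO+LPS and LPS libraries overlapped. In LPS against control the log2 change was 7.07 (SE 0.29, edgeR adjusted p = 5.03e-14), a fold of 135, and 1.08% of all genes tested had a larger absolute change. In PSTO+LPS against PSTO it was 5.81 (SE 0.25, edgeR adjusted p = 1.65e-13), a fold of 56.

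In LPS-treated cells PSTO made no difference to Il10 that could be detected. The means were 24.7 ± 3.44 CPM in PSTO+LPS and 22.2 ± 3.57 CPM in LPS (SD, n = 3 each). The log2 change was 0.15 with an approximate 95% interval of -0.18 to 0.48 (edgeR adjusted p = 0.53), and 0.26 without PSTO+LPS 1 (adjusted p = 0.297). In cells without LPS, Il10 averaged 0.433 ± 0.155 CPM with PSTO and 0.152 ± 0.106 CPM in control, a log2 change of 1.41 (SE 0.47, edgeR adjusted p = 0.0291). The PSTO libraries lay above the control libraries, but the difference rests on 12, 7 and 16 reads in PSTO against 8, 1 and 5 reads in control. The call was lost with limma-voom (1.54, adjusted p = 0.215) and, in edgeR, without PSTO 1 (1.34, adjusted p = 0.0782), PSTO 3 (1.14, adjusted p = 0.142), control 2 (1.02, adjusted p = 0.119) or control 3 (1.42, adjusted p = 0.0742).

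Il10ra, the ligand-binding chain of the IL-10 receptor, rose with LPS and with PSTO, and was lower with both than with LPS alone. It stood at 102, 106 and 118 CPM in PSTO+LPS, at 144, 150 and 138 CPM in LPS, at 59.5, 56.5 and 61.3 CPM in PSTO and at 40.9, 43.2 and 42.4 CPM in control. The order LPS, PSTO+LPS, PSTO, control held with no overlap between neighbouring groups. The log2 change was 1.77 in LPS against control (SE 0.06, edgeR adjusted p = 6.57e-15) and 0.88 in PSTO+LPS against PSTO (SE 0.06, edgeR adjusted p = 3.44e-10). PSTO against control gave 0.49 (SE 0.06, edgeR adjusted p = 6.72e-06), a fold of 1.4. PSTO+LPS against LPS gave -0.41 (SE 0.06, edgeR adjusted p = 2.87e-05), and -0.37 without PSTO+LPS 1.

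Il10rb, the shared receptor chain, moved least of the 6 genes with LPS. It stood at 62, 70.6 and 58.5 CPM in PSTO+LPS, at 53.5, 57.3 and 55.8 CPM in LPS, at 84.4, 79.4 and 77.5 CPM in PSTO and at 62.8, 65.6 and 68.7 CPM in control. PSTO libraries were the highest and LPS libraries the lowest, while the PSTO+LPS and control libraries overlapped. LPS against control gave a log2 change of -0.24 (SE 0.07, edgeR adjusted p = 0.00438), and 76.1% of all genes tested had a larger absolute change. With upper-quartile library scaling that change was -0.40. PSTO+LPS against PSTO gave -0.34 (SE 0.07, edgeR adjusted p = 0.000288). PSTO against control gave 0.29 (SE 0.07, edgeR adjusted p = 0.00231).

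PSTO+LPS against LPS gave 0.20 for Il10rb (SE 0.07, edgeR adjusted p = 0.0336), with no overlap between those libraries. That call was lost without PSTO+LPS 2 (0.12, adjusted p = 0.226), LPS 1 (0.16, adjusted p = 0.13), LPS 2 (0.21, adjusted p = 0.0503) or LPS 3 (0.20, adjusted p = 0.0764), with no filter on low counts (0.18, adjusted p = 0.0773) and with limma-voom (0.19, adjusted p = 0.0571). Of the 3808 exon bases of Il10rb in the GENCODE M21 annotation, 569 overlap the same-strand gene Gm21970, which had 0 reads in every library. The other 5 genes share no exon bases with another gene there. How reads in shared bases were counted is not stated, so the 0 reads of Gm21970 do not show how the overlap affects the Il10rb count.

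Tgfb1, the TGF-beta1 ligand gene, rose with LPS and was lower with PSTO both with and without LPS. It stood at 269, 286 and 290 CPM in PSTO+LPS, at 385, 390 and 419 CPM in LPS, at 108, 109 and 113 CPM in PSTO and at 130, 126 and 129 CPM in control. The order LPS, PSTO+LPS, control, PSTO held with no overlap. The log2 change was 1.63 in LPS against control (SE 0.05, edgeR adjusted p = 6.67e-16), a fold of 3.1, and 1.36 in PSTO+LPS against PSTO (SE 0.05, edgeR adjusted p = 1.56e-14), a fold of 2.56. PSTO against control gave -0.22 (SE 0.05, edgeR adjusted p = 0.00187). PSTO+LPS against LPS gave -0.50 (SE 0.05, edgeR adjusted p = 1.67e-07), and -0.47 without PSTO+LPS 1.

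Tgfbr1, the type I receptor kinase gene, fell most of the 6 with LPS. It stood at 44, 34.9 and 35.3 CPM in PSTO+LPS, at 27.9, 23.1 and 26.3 CPM in LPS, at 137, 129 and 116 CPM in PSTO and at 142, 163 and 147 CPM in control. The order control, PSTO, PSTO+LPS, LPS held with no overlap, and PSTO+LPS 1 was the highest of its group. LPS against control gave a log2 change of -2.54 (SE 0.09, edgeR adjusted p = 1.11e-14), 5.83-fold lower, and 8.97% of all genes tested had a larger absolute change. PSTO+LPS against PSTO gave -1.73 (SE 0.09, edgeR adjusted p = 4e-12), 3.33-fold lower.

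PSTO moved Tgfbr1 in opposite directions without and with LPS. PSTO against control gave a log2 change of -0.25 (SE 0.08, edgeR adjusted p = 0.0311), a call that was lost without PSTO 3 (-0.21, adjusted p = 0.111) or control 2 (-0.21, adjusted p = 0.0991). PSTO+LPS against LPS gave 0.56 (SE 0.10, edgeR adjusted p = 0.000148), a fold of 1.48, and 0.44 without PSTO+LPS 1 (adjusted p = 0.000976). In bulk libraries a change in every cell and a change in the number of cells that carry the RNA cannot be told apart.

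Tgfbr2, the type II receptor that binds TGF-beta first, fell with LPS and showed no detectable PSTO effect. It stood at 63.9, 86.3 and 82.5 CPM in PSTO+LPS, at 84.6, 89.6 and 76.5 CPM in LPS, at 212, 188 and 171 CPM in PSTO and at 197, 205 and 196 CPM in control. The libraries with LPS lay below those without it, and within each of these sets the groups overlapped. LPS against control gave a log2 change of -1.25 (SE 0.09, edgeR adjusted p = 5.84e-10), 2.38-fold lower, and PSTO+LPS against PSTO gave -1.30 (SE 0.09, edgeR adjusted p = 5.18e-10), 2.46-fold lower. PSTO against control gave -0.07 with an approximate 95% interval of -0.24 to 0.11 (edgeR adjusted p = 0.644). PSTO+LPS against LPS gave -0.11 with an interval of -0.30 to 0.08 (edgeR adjusted p = 0.393), and 0.01 without PSTO+LPS 1, the library with the lowest Tgfbr2 level.

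Each of the 6 genes kept its direction and its call in PSTO+LPS against PSTO without PSTO+LPS 1. The log2 changes were then 5.92 for Il10, 0.92 for Il10ra and -0.32 for Il10rb. They were 1.39 for Tgfb1, -1.86 for Tgfbr1 and -1.18 for Tgfbr2.

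**Figure D2:**
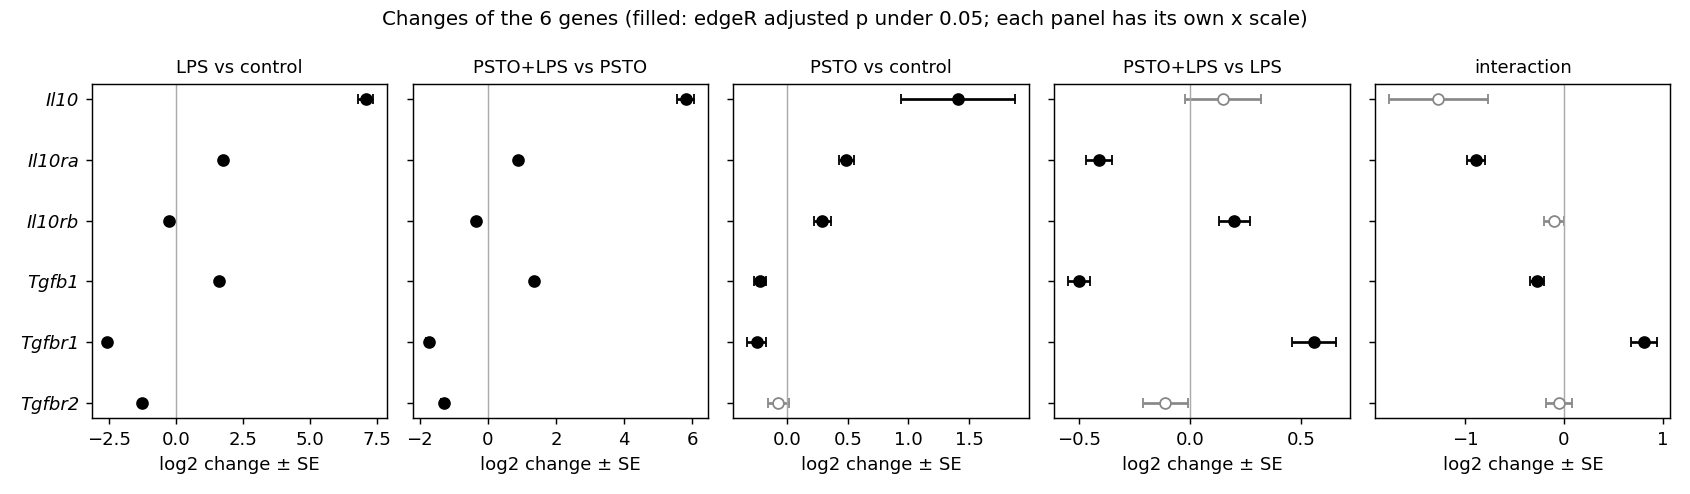
Log2 change of each gene with its SE in the 5 comparisons from the edgeR fit; filled points had an adjusted p under 0.05, and each panel has its own x scale. In the panel of PSTO+LPS against LPS, Tgfbr1 (0.56) and Il10rb (0.20) lie to the right of 0 and Il10ra (-0.41) and Tgfb1 (-0.50) to the left.

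The interaction asks whether the PSTO effect differed between cells with and without LPS, as the log2 change of PSTO+LPS against LPS minus that of PSTO against control. It was called for 3 of the 6 genes, against 17.1% of all genes tested. For Il10ra it was -0.89 (SE 0.09, edgeR adjusted p = 7.97e-07), and -0.85 without PSTO+LPS 1, and PSTO lowered Il10ra with LPS but raised it without. For Tgfbr1 it was 0.81 (SE 0.13, edgeR adjusted p = 0.000173), and 0.68 without PSTO+LPS 1 (adjusted p = 0.000225). For Tgfb1 it was -0.27 (SE 0.07, edgeR adjusted p = 0.00936), so that the fall with PSTO was larger with LPS, and -0.25 without PSTO+LPS 1 (adjusted p = 0.0162).

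The Tgfb1 interaction call was lost when any 1 PSTO or control library was left out. The values were -0.23, -0.23 and -0.20 without PSTO 1, PSTO 2 and PSTO 3 (adjusted p = 0.0547, 0.0659 and 0.102), and -0.23, -0.20 and -0.22 without control 1, control 2 and control 3 (adjusted p = 0.0599, 0.0858 and 0.0634). Il10 had an interaction of -1.27 (SE 0.50, edgeR adjusted p = 0.0967), which was not called and rests on the few reads without LPS. It ranged from -1.74 without control 1 to -0.83 without control 2. Il10rb had -0.10 with an approximate 95% interval of -0.28 to 0.09 (edgeR adjusted p = 0.585), and Tgfbr2 had -0.05 with an interval of -0.30 to 0.21 (edgeR adjusted p = 0.872). The Tgfbr2 value was 0.07 without PSTO+LPS 1, 0.10 without PSTO 1 and 0.02 without control 1 or control 3.

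Summed marker levels of other cell types also differed between some groups. Summed B cell markers lay at 0.0596 to 0.755 CPM in PSTO+LPS, 0.213 to 0.628 CPM in LPS, 0.226 to 0.351 CPM in PSTO and 0 to 0.0661 CPM in control, so that LPS and PSTO each lay above control. PSTO+LPS overlapped control. The control value rests on 2 reads of Cd79a, and the PSTO value on 17 reads of Cd79a and 5 of Cd79b. The LPS value rests on 15 reads of Ms4a1, 9 of Cd79a and 1 of Cd79b. No B cell marker had enough reads to test. The summed level of the neutrophil markers Ly6g, S100a8, S100a9 and Mpo was 8.94 to 10.9 CPM in PSTO+LPS, 2.4 to 3.41 CPM in LPS, 1.31 to 1.72 CPM in PSTO and 1.29 to 1.87 CPM in control. Nearly all of it was S100a8, which macrophages can express too, at 9.26 CPM in PSTO+LPS, 2.78 CPM in LPS, 1.45 CPM in PSTO and 1.54 CPM in control. S100a9 had 3 reads in PSTO+LPS and 0 in the other groups, and Ly6g had 6 reads in PSTO+LPS, 7 in PSTO and 0 in LPS and in control. The part of these transcripts in the differences between groups was not tested. The macrophage receptor gene Csf1r averaged 1018 CPM in PSTO+LPS, 852 CPM in LPS, 2285 CPM in PSTO and 2605 CPM in control.

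Because library scaling cancels in a ratio of reads of 2 genes within a library, 4 such ratios were compared across groups. They compare groups, not the abundance of the 2 RNAs, which differ in length. The ratio of Tgfb1 to Tgfbr1 reads was 6.12, 8.2 and 8.22 in PSTO+LPS, 13.8, 16.9 and 15.9 in LPS, 0.792, 0.846 and 0.975 in PSTO, and 0.917, 0.774 and 0.876 in control. PSTO+LPS lay between LPS and the groups without LPS, and PSTO and control overlapped. It was 18.1-fold higher in LPS than in control and 8.58-fold higher in PSTO+LPS than in PSTO. PSTO+LPS against LPS gave a fold of 0.481. Without PSTO+LPS 1 the fold was 9.46 against PSTO and 0.531 against LPS.

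**Figure D3:**
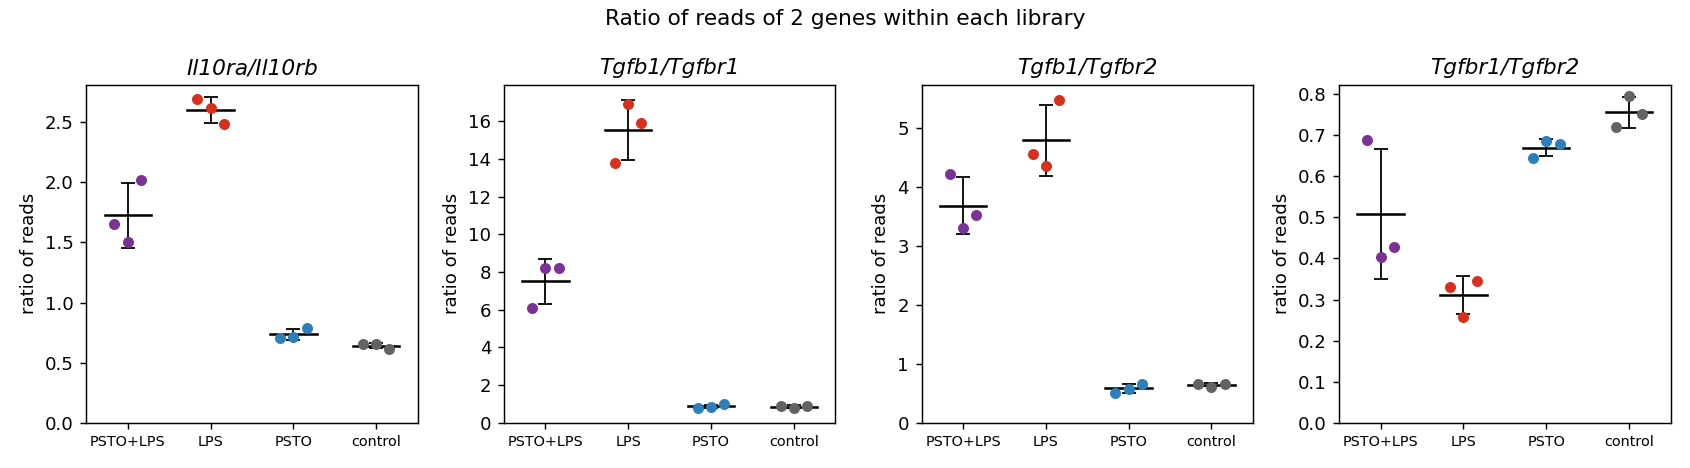
Ratio of reads of 2 genes within each library (linear axes from 0), with group means and SD bars over 3 libraries. The ratio of Tgfb1 to Tgfbr1 averages 7.51 in PSTO+LPS and 15.5 in LPS, against 0.871 in PSTO and 0.856 in control.

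The ratio of the receptor chains Il10ra and Il10rb averaged 1.72 ± 0.269 in PSTO+LPS, 2.6 ± 0.11 in LPS, 0.736 ± 0.0473 in PSTO and 0.643 ± 0.0225 in control (SD, n = 3 each). It was 4.04-fold higher in LPS than in control, 2.33-fold higher in PSTO+LPS than in PSTO, and PSTO+LPS against LPS gave a fold of 0.659. The ratio of Tgfb1 to Tgfbr2 averaged 3.68 ± 0.473 in PSTO+LPS, 4.79 ± 0.599 in LPS, 0.583 ± 0.0749 in PSTO and 0.645 ± 0.0259 in control. The ratio of Tgfbr1 to Tgfbr2 was 0.689, 0.404 and 0.428 in PSTO+LPS, 0.33, 0.258 and 0.344 in LPS, 0.645, 0.685 and 0.677 in PSTO, and 0.72, 0.795 and 0.752 in control. PSTO+LPS 1 stood apart here and reached the level of the PSTO libraries. The fold in PSTO+LPS against PSTO was 0.736, and 0.622 with no overlap without PSTO+LPS 1. Against LPS it was 1.6, and 1.35 without that library.

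A two-sided exact permutation test on the log2 ratios of 3 against 3 libraries cannot give a p below 0.1. Of the 16 ratio comparisons, 13 reached it, with an adjusted p of 0.123 each. The other 3 were Tgfb1 to Tgfbr1 in PSTO against control (exact permutation p = 0.9), Tgfb1 to Tgfbr2 in PSTO against control (exact permutation p = 0.3) and Tgfbr1 to Tgfbr2 in PSTO+LPS against PSTO (exact permutation p = 0.4).

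Some genes followed the members closely across the 12 libraries. For each member the 3 closest of 8989 candidate genes were taken, by root mean square distance of centred log2 CPM, which is a description of libraries that share their groups and depth. For Il10 the distances were larger: Socs3, a feedback inhibitor of cytokine signalling, lay at 0.45, Acpp at 0.52 and Upp1 at 0.54. The distance is in log2 units and is not scaled to a gene's range, which was widest for Il10, a gene with few reads without LPS. Distances of different members are therefore not comparable. The Pearson correlation was 0.993 for Socs3 with Il10 and 0.953 for Smg5 with Il10rb, whose distance was 0.06. Socs3 averaged 979 CPM in PSTO+LPS, 986 CPM in LPS, 32.4 CPM in PSTO and 12.7 CPM in control. The other members had matches at 0.15 or less.

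Il10ra was followed by B4galt5, a galactosyltransferase gene, at 0.08, by the kinase gene Stk10 at 0.10 and by the Toll-like receptor adaptor gene Ticam1 at 0.11. For Il10rb the closest were Smg5 at 0.06, and Xbp1, a transcription factor gene of the unfolded protein response, and Gzf1 at 0.07 each. Tgfb1 was followed by Ankfy1 at 0.06 and by Susd6 and Tbc1d1 at 0.08 each. Tgfbr1 was followed by the DNA mismatch repair gene Msh6 at 0.10, by Ndrg2 at 0.14 and by the chromatin remodeller gene Smarca2 at 0.15. For Tgfbr2 the closest were Cnpy3 at 0.11, and Adssl1 and Inpp5d, which encodes the lipid phosphatase SHIP1, at 0.12 each.

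The other genes of both pathways were read from 8 lists, described by counts and by the median log2 change, with the median of all genes tested lying between -0.03 and 0.01 in the 5 comparisons. Of all genes tested 32.8% were called higher and 30.1% lower in LPS against control, and 29.8% higher and 29.9% lower in PSTO+LPS against PSTO. In PSTO against control 14.8% were higher and 15.8% lower, in PSTO+LPS against LPS 16.6% were higher and 21.7% lower, and in the interaction 6.96% were higher and 10.1% lower. These shares stand beside the counts of each list.

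All 6 genes of IL-10 receptor signalling were higher with LPS, both without PSTO (median 2.85), against 32.8% of all genes higher, and with it (median 2.97), against 29.8%. Socs3 had a log2 change of 6.27 in LPS against control (SE 0.07, edgeR adjusted p = 1.44e-21) and of 4.92 in PSTO+LPS against PSTO. Stat3, the transcription factor that IL-10 activates, averaged 276 ± 18.1 CPM in PSTO+LPS, 233 ± 16.3 CPM in LPS, 111 ± 3.56 CPM in PSTO and 70.8 ± 2.39 CPM in control. It was higher in LPS than in control by 1.72 on the log2 scale, and higher with PSTO than without, by 0.65 without LPS and by 0.24 with LPS.

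PSTO alone raised 3 of these 6 signalling genes (Jak1, Stat3, Socs3) and lowered 3, against 30.6% of all genes called. In PSTO+LPS against LPS 2 were higher and 2 lower, a share of 66.7% beside 38.3% of all genes. Jak1 was higher by 0.77 (edgeR adjusted p = 7.59e-09) and Tyk2 changed by -0.53 (edgeR adjusted p = 1.02e-06), both kinases of the IL-10 receptor. With DESeq2 1 lower gene was left. Socs3 was called higher with PSTO in cells without LPS (1.34) and averaged 979 ± 61.2 CPM in PSTO+LPS and 986 ± 37.7 CPM in LPS. Its interaction was -1.35 (SE 0.09, edgeR adjusted p = 7.7e-09).

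**Figure D4:**
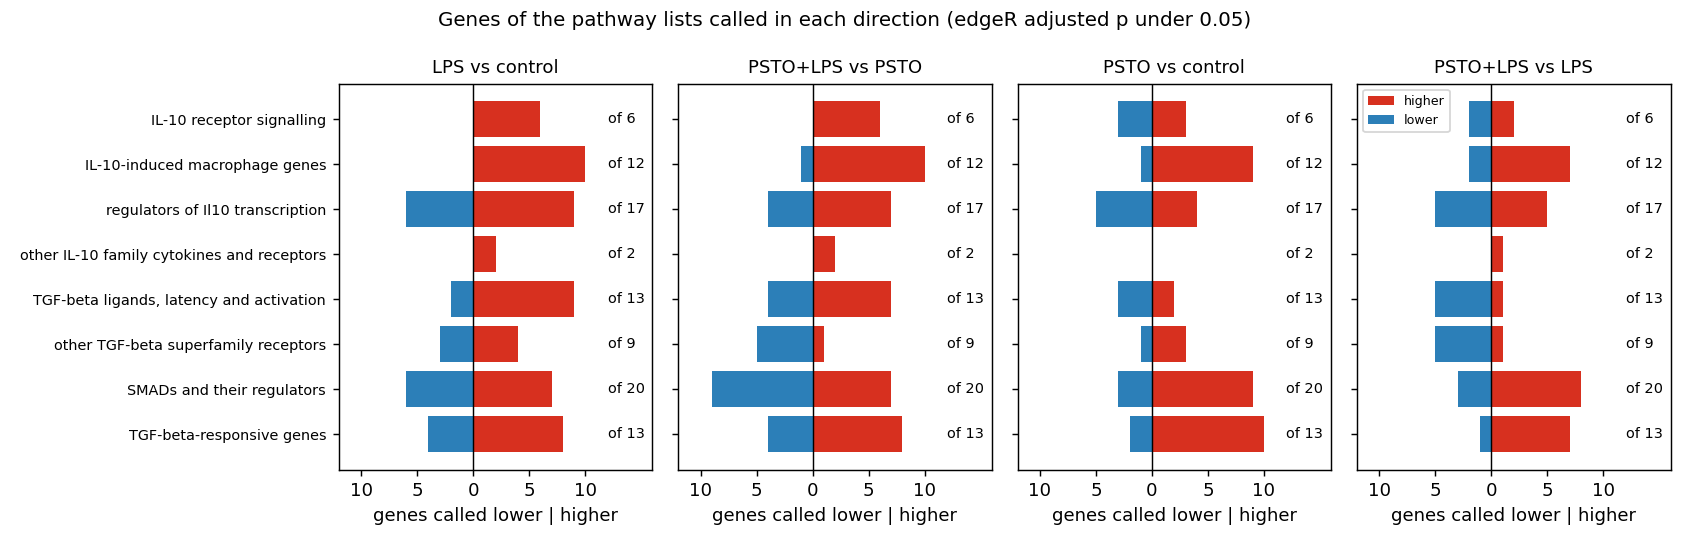
Number of genes of each pathway list called higher (right of 0) and lower (left of 0) at an edgeR adjusted p under 0.05, with the number tested at the right edge of each row. All 6 IL-10 receptor signalling genes are higher in LPS against control and in PSTO+LPS against PSTO, beside 32.8% and 29.8% of all genes. In PSTO against control 10 of 13 TGF-beta-responsive genes are higher, beside 14.8% of all genes.

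Of 12 tested genes that IL-10 induces in macrophages, 10 were higher and none lower in LPS than in control (median 1.42), and 10 were higher and 1 lower in PSTO+LPS than in PSTO (median 1.25). The shares called were 83.3% and 91.7%, beside 62.9% and 59.7% of all genes. With upper-quartile factors 1 and 2 were lower in these comparisons. Socs3 is also on the list of IL-10 receptor signalling, so it is counted in both lists. Several of these 12 genes also respond to LPS directly. PSTO against control raised 9 and lowered 1 (median 0.71), or 2 in the fit without PSTO+LPS 1, and PSTO+LPS against LPS raised 7 and lowered 2 (median 0.33). These are shares of 83.3% and 75%, beside 30.6% and 38.3% of all genes. Il1rn, the interleukin-1 receptor antagonist gene, averaged 2742 ± 220 CPM in PSTO+LPS, 1249 ± 82.5 CPM in LPS, 156 ± 10.6 CPM in PSTO and 94.4 ± 6.23 CPM in control. Its log2 change in PSTO+LPS against LPS was 1.13 (SE 0.06, edgeR adjusted p = 1.17e-10).

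Nfil3, a transcription factor gene that is also on the list of regulators of Il10, was higher with PSTO, and its changes with LPS were not called (-0.19 without PSTO, edgeR adjusted p = 0.163, and -0.15 with it, edgeR adjusted p = 0.22). It averaged 22.2 ± 0.551 CPM in PSTO+LPS, 6.99 ± 0.571 CPM in LPS, 24.6 ± 1.3 CPM in PSTO and 7.96 ± 0.42 CPM in control. The log2 change was 1.63 in PSTO against control (edgeR adjusted p = 8.53e-10) and 1.66 in PSTO+LPS against LPS (edgeR adjusted p = 1.04e-09). The phosphatase gene Dusp1 rose with PSTO alone by 1.77 and averaged 171 ± 6.47 CPM in PSTO+LPS and 176 ± 3.88 CPM in LPS, with an interaction of -1.81 (SE 0.08, edgeR adjusted p = 2.57e-10). Zfp36, whose product destabilises cytokine mRNAs, averaged 680 ± 46.4 CPM in PSTO+LPS, 542 ± 19.3 CPM in LPS, 70.4 ± 3.61 CPM in PSTO and 43.3 ± 2.14 CPM in control.

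Of 17 tested regulators of Il10 transcription, 9 were higher and 6 lower in LPS than in control (median 0.29), and 7 were higher and 4 lower in PSTO+LPS than in PSTO (median 0.08). The share called was 88.2% in the first, beside 62.9% of all genes, and 64.7% in the second, near the 59.7% of all genes. Maf, a transcription factor that activates Il10, averaged 40.7 ± 11.9 CPM in PSTO+LPS, 79.6 ± 7.69 CPM in LPS, 0.981 ± 0.213 CPM in PSTO and 1.49 ± 0.443 CPM in control. Its log2 change was 5.71 in LPS against control (SE 0.22, edgeR adjusted p = 2.3e-14) and -0.97 in PSTO+LPS against LPS (SE 0.16, edgeR adjusted p = 8.43e-05), whereas Il10 itself did not differ detectably in the second of these. The kinase gene Map3k8 and the NF-kB gene Nfkb1 rose by 3.20 and 3.54 in LPS against control. Rps6ka5, the MSK1 kinase gene, fell by 2.96.

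Of these regulators 5 were higher and 5 lower in PSTO+LPS than in LPS (median 0.06), a share of 58.8% beside 38.3% of all genes. Bhlhe40, a repressor of Il10 in mouse lymphocytes and macrophages, changed by -0.65 (edgeR adjusted p = 4.3e-07) and Rela by 0.58 (edgeR adjusted p = 3.09e-07). PSTO against control raised 4, among them Cebpb by 0.67, and lowered 5, a count that was 3 without PSTO 3 or without control 2. The share was 52.9% beside 30.6% of all genes. Of the other IL-10 family, 2 of 11 genes could be tested, and both were called higher with LPS in either comparison, against 32.8% and 29.8% of all genes, with 1 called in LPS against control in the fit of these groups alone and 1 in PSTO+LPS against PSTO without PSTO+LPS 3. Il20rb averaged 3.69 ± 0.802 CPM in PSTO+LPS, 3.91 ± 0.123 CPM in LPS, 1.67 ± 0.174 CPM in PSTO and 1.56 ± 1.09 CPM in control, and Il19 was below 1 CPM in every group. The genes Il20, Il22 and Il24 had 0 reads in all 12 libraries.

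Of 13 tested genes for TGF-beta ligands, latency and activation, 9 were higher and 2 lower in LPS than in control (median 1.72), with 1 lower in the fit of these groups alone. In PSTO+LPS against PSTO 7 were higher and 4 lower (median 1.98). The share called was 84.6% in each, beside 62.9% and 59.7% of all genes. The ligand genes Tgfb2 and Tgfb3 had 47 and 28 reads over all 12 libraries and were not tested, so Tgfb1 was the ligand of the family that could be compared. Mmp9 and Mmp14, metalloproteinase genes whose products can release TGF-beta from its latent complex, rose by 6.21 (edgeR adjusted p = 3.28e-16) and 6.64 (edgeR adjusted p = 2.37e-11) in LPS against control. Mmp9 averaged 0.965 ± 0.233 CPM and Mmp14 0.213 ± 0.193 CPM in control, so these sizes rest on low control levels. In LPS, Mmp14 averaged 23.2 ± 2.24 CPM. Itgav, the integrin alpha V gene, averaged 1537 ± 43.1 CPM in PSTO+LPS, 1520 ± 78.8 CPM in LPS, 389 ± 40.4 CPM in PSTO and 583 ± 24.1 CPM in control. Its partner gene Itgb5 moved the other way, by -2.28 in LPS against control.

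In PSTO+LPS against LPS, 1 gene of this list was higher and 5 were lower (median -0.71). The share called, 46.2%, was near the 38.3% of all genes, among which lower calls also outnumbered higher ones. Mmp9 averaged 22.9 ± 4.3 CPM in PSTO+LPS and 72.2 ± 3.96 CPM in LPS, and its log2 change was -1.66 (SE 0.13, edgeR adjusted p = 1.01e-08). Mmp14 changed by -1.92 (SE 0.28, edgeR adjusted p = 2.31e-05). Nrros, which encodes the protein that holds latent TGF-beta on macrophages and microglia, averaged 35 ± 6.07 CPM in PSTO+LPS, 104 ± 6.04 CPM in LPS, 62.1 ± 1.83 CPM in PSTO and 104 ± 6.49 CPM in control. It changed by -1.57 in PSTO+LPS against LPS (SE 0.09, edgeR adjusted p = 1.91e-10) and by -0.74 in PSTO against control (SE 0.09, edgeR adjusted p = 1.75e-06). Furin, the protease gene for cleavage of the TGF-beta precursor, was the gene that was higher, by 0.52 (edgeR adjusted p = 3.02e-06). PSTO against control raised 2 and lowered 3 of the 13, a share of 38.5% near the 30.6% of all genes, and the 2 became 1 with limma-voom, in the fit of these groups alone, and without PSTO 1, control 1 or control 2.

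Of 9 other tested receptors of the TGF-beta superfamily, 4 were higher and 3 lower in LPS than in control (median 0.12), and 1 was higher and 5 lower in PSTO+LPS than in PSTO (median -0.36). The shares called, 77.8% and 66.7%, were near the 62.9% and 59.7% of all genes. Acvrl1, the type I receptor ALK1 that binds BMP9 and can take part in TGF-beta signalling, averaged 99.9 ± 6.88 CPM in PSTO+LPS, 31.6 ± 2 CPM in LPS, 55.9 ± 5.83 CPM in PSTO and 29 ± 2.62 CPM in control. Its log2 change was 0.94 in PSTO against control (edgeR adjusted p = 7.38e-08) and 1.66 in PSTO+LPS against LPS (edgeR adjusted p = 3.66e-11), with an interaction of 0.72 (SE 0.12, edgeR adjusted p = 0.000292). It was the single receptor of this list called higher in PSTO+LPS against LPS. The other 5 called there were lower, a share of 66.7% called beside 38.3% of all genes, among them the activin type I receptor gene Acvr1 by -0.67 and the co-receptor gene Eng by -1.11. The co-receptor gene Tgfbr3 had 0 reads.

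Of 20 tested SMADs and SMAD regulators, 7 were higher and 6 lower in LPS than in control (median 0.01), a share of 65% beside 62.9% of all genes. In PSTO+LPS against PSTO 7 were higher and 9 lower (median -0.12), a share of 80% beside 59.7%. Smad7, the inhibitory SMAD that TGF-beta induces, averaged 45.6 ± 1.48 CPM in PSTO+LPS, 7.88 ± 1.43 CPM in LPS, 21.2 ± 0.678 CPM in PSTO and 11.3 ± 1.29 CPM in control. Its log2 change was 2.54 in PSTO+LPS against LPS (SE 0.12, edgeR adjusted p = 1.28e-11) and 0.90 in PSTO against control (SE 0.11, edgeR adjusted p = 5.29e-06), with an interaction of 1.64 (SE 0.16, edgeR adjusted p = 1.08e-06). Smad6, the other inhibitory SMAD, fell by 3.94 in LPS against control and fell by 3.09 in PSTO+LPS against PSTO.

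The co-repressor genes Ski and Skil went different ways with LPS. Ski averaged 50.4 ± 2.33 CPM in PSTO+LPS, 30.6 ± 2.88 CPM in LPS, 134 ± 6.65 CPM in PSTO and 116 ± 5.23 CPM in control. Skil averaged 569 ± 47.2 CPM in PSTO+LPS, 345 ± 6.93 CPM in LPS, 336 ± 8.68 CPM in PSTO and 260 ± 15 CPM in control. Both were higher in PSTO+LPS than in LPS, by 0.72 each (edgeR adjusted p = 2.51e-07 for Ski and 8.08e-09 for Skil). Over the list 8 were higher and 3 lower in that comparison (median 0.13), a share of 55% beside 38.3% of all genes. PSTO against control raised 9 and lowered 3 (median 0.14), a share of 60% beside 30.6%, with 5 raised without control 1 and 0 lowered without PSTO 1, 1 lowered without control 3 and 1 with the replicate block.

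**Figure D5:**
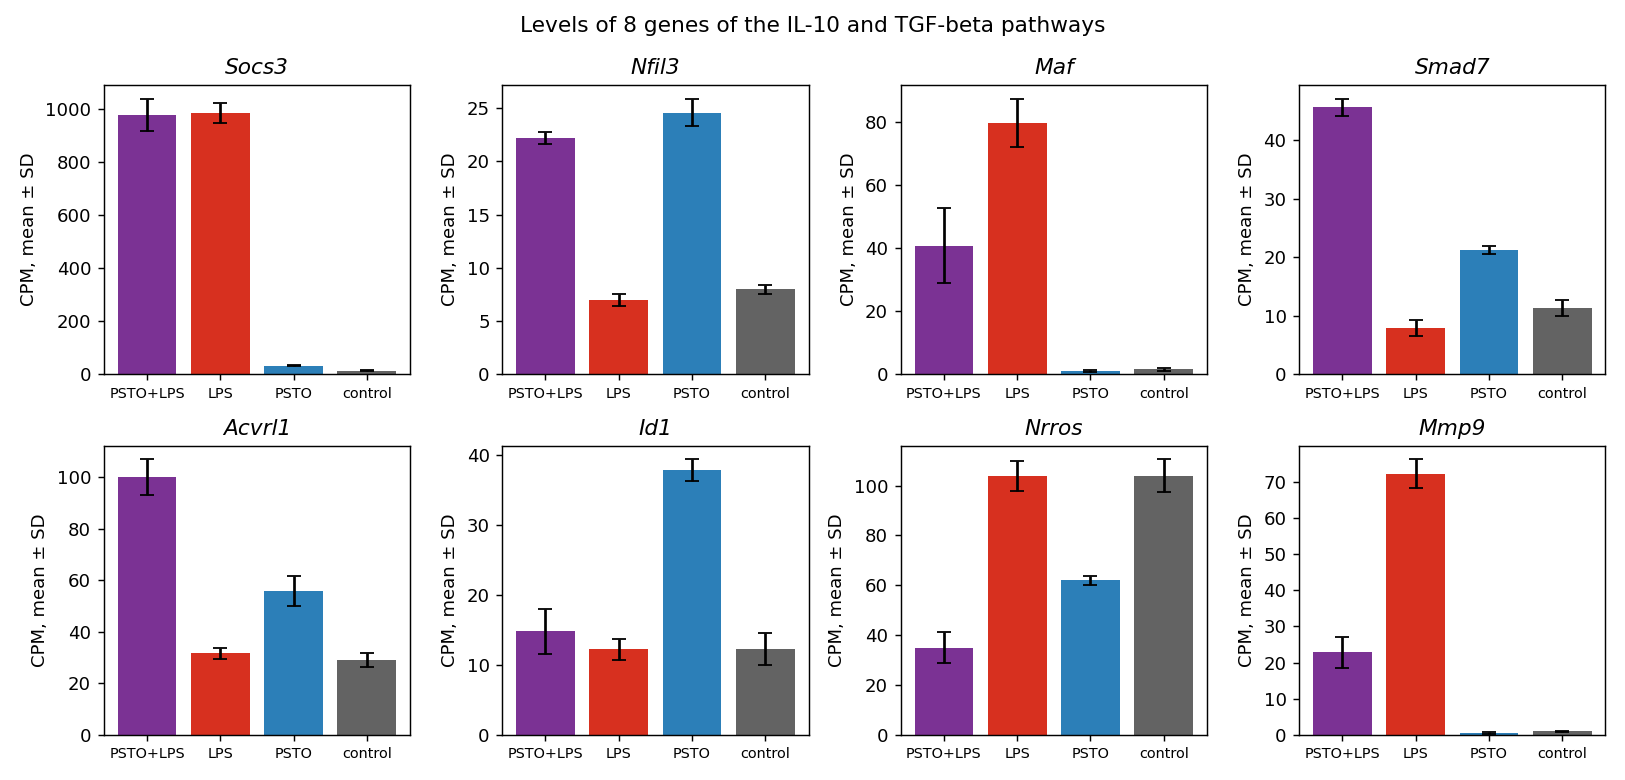
Mean level (CPM, axes from 0) with SD bars over 3 libraries for 8 genes of both pathways. Smad7 and Acvrl1 are highest in PSTO+LPS, at 45.6 and 99.9 CPM, and Nrros is lowest there, at 35 CPM, while Socs3 and Mmp9 are high with LPS.

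Of 13 tested TGF-beta-responsive genes, 4 of which are also SMAD regulators (Smad7, Skil, Pmepa1, Tgif1), 8 were higher and 4 lower in LPS than in control (median 0.43), with the same counts in PSTO+LPS against PSTO (median 0.76). The share called was 92.3% in each, beside 62.9% and 59.7% of all genes. Timp1, Cdkn1a and Junb, which respond to many other signals too, rose by 5.70, 2.54 and 2.31 in LPS against control. The size for Timp1 rests on a low control level, 0.432 ± 0.165 CPM, against 22.9 ± 2.48 CPM in LPS. Tgfbi, named for its induction by TGF-beta, averaged 6.14 ± 1.02 CPM in PSTO+LPS, 6.5 ± 0.821 CPM in LPS, 8.37 ± 1.32 CPM in PSTO and 30.8 ± 2.12 CPM in control. It fell by 2.25 in LPS against control (edgeR adjusted p = 8.82e-11) and by 1.88 in PSTO against control (edgeR adjusted p = 6.38e-09).

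PSTO against control raised 10 and lowered 2 of these 13 genes (median 0.37), against 30.6% of all genes called. Id1, an inhibitor of basic helix-loop-helix factors, averaged 14.8 ± 3.21 CPM in PSTO+LPS, 12.2 ± 1.55 CPM in LPS, 37.8 ± 1.51 CPM in PSTO and 12.2 ± 2.28 CPM in control. It rose by 1.62 with PSTO alone (SE 0.14, edgeR adjusted p = 6.41e-08). Its relative Id3 was higher by 1.19 in PSTO+LPS than in LPS (SE 0.10, edgeR adjusted p = 3.82e-08). The counts in PSTO+LPS against LPS were 7 higher and 1 lower (median 0.19), a share of 61.5% beside 38.3% of all genes, and the 1 became 2 without LPS 3. The lower gene was Cx3cr1, the fractalkine receptor gene, which averaged 128 ± 8.86 CPM in PSTO+LPS, 282 ± 15.5 CPM in LPS, 352 ± 9.13 CPM in PSTO and 535 ± 10.9 CPM in control.

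Interactions in the lists are read against 17.1% of all genes called. They were called for 3 higher and 3 lower of the 6 IL-10 signalling genes, where limma-voom kept 1 of the 3 higher. Of the 12 IL-10-induced genes 3 were higher and 6 lower, and the 3 became 5 with DESeq2 or without PSTO 1. Socs3 is counted among the lower genes of both these IL-10 lists. Of the 13 TGF-beta-responsive genes 5 were higher and 7 lower, and of the 9 other receptors 1 was higher and 4 lower. Of the 20 SMADs and regulators 5 were higher and 3 lower, a share of 40%, and the 3 became 5 without PSTO+LPS 1 and 1 without PSTO 1 or control 1. Of the 17 regulators of Il10 1 was higher and 4 lower, a share of 29.4%, and the 4 became 2 without PSTO 2, PSTO 3 or any 1 control library. The 1 became 0 with limma-voom or without PSTO+LPS 3, LPS 1, LPS 2 or PSTO 2, and 2 with DESeq2 or without control 2. Of the 13 genes for TGF-beta ligands, latency and activation 2 were higher and 1 lower, a share of 23.1% near that of all genes, and the 1 became 2 with DESeq2 or without PSTO+LPS 3 or PSTO 3, and 3 with no filter on low counts. Neither of the 2 tested genes of the other IL-10 family was called.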

How the data were processed

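RNA was measured in 12 libraries of RAW 264.7 cells. The deposited table holds raw read counts per gene, whole numbers with no normalization, and all 12 columns matched a sample. The authors used HISAT, DESeq2 and the mouse build mm39, per the submitters' processing notes. How reads were counted per gene, and the annotation, strand setting and versions, are not stated there or in the labels.

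The tools were edgeR 4.0.16 and limma 3.58.1 in R 4.3.3. The filter filterByExpr kept 14505 of 55137 entries, holding at least 99.91% of each library's reads. Library sizes were TMM-scaled, and a quasi-likelihood model with 1 mean per group was fitted over all 12 libraries (common biological coefficient of variation 0.0959). The 5 comparisons were LPS against control, the same with PSTO in both groups, PSTO against control, the same with LPS in both groups, and the interaction. A gene was called at a Benjamini-Hochberg adjusted p under 0.05 over all genes tested. The SE is the log2 change divided by the square root of F, and intervals are 1.96 SE on either side. Log2 CPM used a prior count of 2. The procedure was tested on simulated data.

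The members and lists were chosen with earlier results of these data known. Named from each list were genes among the 4 largest called changes per comparison with a mean of at least 5 CPM in the higher group and no overlap of libraries (not asked of the interaction), and other list genes named, such as Il19, Il20rb and genes without enough reads to test, were chosen after their values were seen. A few genes of the lists are counted but not reported by name here. The nearest patterns were sought among genes averaging at least 5 CPM. No 2 libraries of a group were alike within counting noise (chi-square per degree of freedom 4.32 to 14.1). The alternatives were relative log expression and upper-quartile factors, no filter, a filter of 50 reads, DESeq2 1.42.0, limma-voom, the replicate block, each library left out (read ratios only without PSTO+LPS 1, chosen after seeing the data) and only the groups compared.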

Additional observations from a re-analysis of the deposited data

Results flagged for a closer look

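The effect of PSTO differed between cells with and without LPS, by the interaction test in edgeR, for 3 of the 6 genes. Of all genes tested, 17.1% were called in that test. For Tgfbr1 the difference on the log2 scale was 0.81 (SE 0.13, adjusted p = 0.000173). All 3 PSTO+LPS libraries were above all 3 LPS libraries, and all 3 PSTO libraries were below all 3 control libraries. The change in PSTO against control was small (-0.25, edgeR adjusted p = 0.0311). Its call was lost without PSTO 3 (edgeR adjusted p = 0.111) or control 2 (edgeR adjusted p = 0.0991). For Il10ra the interaction difference was -0.89 (SE 0.09, adjusted p = 7.97e-07), with the PSTO+LPS libraries below the LPS libraries and the PSTO libraries above the control libraries. For Tgfb1 it was -0.27 (SE 0.07, adjusted p = 0.00936), with PSTO libraries below their counterparts both with and without LPS. That call was lost when any 1 PSTO or control library was left out, with adjusted p between 0.0547 and 0.102 in edgeR.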

How the results depend on the processing

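Of 30 results on the 6 genes, 24 kept their direction and their side of the threshold under every alternative run. The Il10 change in PSTO vs control lost its call with limma-voom (1.54) and ranged from 1.02 to 1.93 with 1 library left out; the fit of these 2 groups alone gave it no value, since Il10 then failed the filter on low counts. The Il10rb change in PSTO+LPS vs LPS lost its call with no filter (0.18) and limma-voom (0.19) and ranged from 0.12 to 0.25 with 1 library left out. Leaving out 1 library also ended calls of Tgfbr1 in PSTO vs control (-0.32 to -0.21) and of the Tgfb1 interaction (-0.30 to -0.20), and turned the uncalled changes of Tgfbr2 in PSTO+LPS vs LPS (-0.20 to 0.01) and in the interaction (-0.13 to 0.10). The uncalled Il10 interaction ranged from -1.74 to -0.83. The read ratios without PSTO+LPS 1, chosen after seeing the data, kept their direction in PSTO+LPS vs LPS and PSTO+LPS vs PSTO. With 1 library left out, the members called in PSTO vs control numbered 3 to 5, with 3 without PSTO 3 or control 2. The cause of these losses was not tested. Upper-quartile factors moved the median of all genes to -0.144 in LPS vs control and -0.138 in PSTO+LPS vs PSTO, and the calls in LPS vs control to 3829 higher and 5341 lower, against 4753 and 4368 with TMM; Il10rb then changed by -0.40 in LPS vs control, against -0.24 with TMM, and by -0.26 relative to that median. No pairing of libraries by replicate number was detected, though with 3 libraries per group this check cannot exclude it. Deviations of same-numbered libraries correlated at -0.0314 to 0.0513, and 4 of 12 libraries correlated best with their own number. The replicate block gave 8987 calls over all genes in LPS vs control, 8521 in PSTO+LPS vs PSTO, 4294 in PSTO vs control, 5366 in PSTO+LPS vs LPS and 2345 in the interaction, and changed no call of the 6 genes. Of 130 list gene results 122 held under every alternative. Among those that did not were results of Eng, Smad3 (in PSTO vs control), Socs1, Rps6ka5 and Crebbp. Depth limits Il10 without LPS, which rests on 35 reads in PSTO and 14 in control.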
